A study of Mus musculus with 75 samples.

Results

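Mouse E14 embryonic stem cells (ESCs) that lacked an enhancer called Cyp26-E2 (Cyp26-E2-KO) were compared with wild-type cells (WT) by RNA-seq, with 3 libraries in each group. RNA was taken after 24 h of 2 µM retinoic acid (RA), which was added as LIF and 2 inhibitors, PD0325901 of MEK and CHIR99021 of GSK, were withdrawn from a serum medium. All genes of these libraries were analysed, and the deletion accounts for 3 of the 75 samples of the series. Cells without another enhancer, Cyp26-E1-KO, had 3 libraries in the same table and the same treatment, and are given between the other two groups. Cells that lack the receptors RARα and RXRα (RARX-DKO) are compared with a separate WT of their own, after the same 24 h of 2 µM RA. The single knockouts Rarα-KO and Rxrα-KO entered that fit for its spread only. The study asks what RA-dependent enhancers near and far from their genes contribute to early differentiation. The libraries held 28397794 to 33601996 counts each, and 18108 of the 52636 listed genes had enough counts in Cyp26-E2-KO and WT to be tested. Expression is given as CPM, a gene's counts divided by library size, with TMM scaling over the 9 libraries. CPM does not account for gene length, so it serves to compare groups and not genes.

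The identity of the deletion rests on labels with gaps. Titles of the 3 libraries name Cyp26-E2 without the word KO, which only the design text uses, and their columns carry the code b, which was matched to Cyp26-E2 through the 4C tables with the same code. Where the deletion begins and ends, and whether the line is a single clone, is not given in the sources used here. The series calls the replicates biological, but no label says that they came from separate cultures, so the p-values measure the spread between these libraries, which may be technical. Within Cyp26-E2-KO and within WT, pairs of replicates differed by 6.43 to 11.8 times the counting variance. Cyp26-E1-KO replicate 2 stood apart from its partners, at 59.7 and 67.0 times. The test of Cyp26-E2-KO against WT therefore used their 6 libraries alone.

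RA is a small lipid made from vitamin A that enters the nucleus and binds retinoic acid receptors (RARs), which sit on DNA as pairs with retinoid X receptors (RXRs). The pair recognises repeated half-sites, often spaced as in the element called DR5, and turns on genes such as Hoxb1, Rarb and Cyp26a1 in ESCs that leave pluripotency. Enzymes of the CYP26 family oxidise RA and so limit the signal that induced them. Cyp26a1 and Cyp26c1 are neighbours on chromosome 19, and Cyp26b1 lies alone on chromosome 6.

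The name Cyp26-E2 does not say which of these genes it lies near, so its place was read from the WT 4C-seq libraries that used it as bait. 4C-seq counts the DNA fragments that were ligated to a chosen viewpoint, and fragments close to the viewpoint gather most reads. The 2 WT libraries held 10080430 and 9380700 reads, of which 78.4% and 78.3% fell on chromosome 6, and all 1661 and 1586 fragments listed there were bounded by GATC in mm10. The 10-kb window with the most reads was chr6:84630001-84640000 in both, with 5.78% (95% Wilson interval 5.77 to 5.80) and 6.34% (6.32 to 6.36) of the reads of the chromosome. These intervals cover counting error only, since PCR copies are not independent molecules. That window lies in an intron of Exoc6b (chr6:84618487-85069513, minus strand) and 36.1 to 46.1 kb upstream of the start of Cyp26b1 (chr6:84571414-84593908, minus strand). With 5-kb windows the most-read one instead began at 84620001, still within Exoc6b. The window that holds the start of Cyp26b1 had rank 6 in both libraries, with 2.46% and 2.3% of the reads. Reads within 100 kb of the top window made up 38.8% and 39.3%, so the bait lies beside Cyp26b1 and on another chromosome than Cyp26a1 and Cyp26c1.

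The 250 bases before the start of Cyp26b1, Cyp26a1 and Rarb are shown as examples of RA target genes with and without a DR5 match. They are from RefSeq on GRCm38.p6, written along the gene at chr6:84593811-84594060 (minus strand), chr19:37697558-37697807 (plus strand) and chr14:16575477-16575726 (minus strand), with each DR5 match in capitals. Starts of these windows are those of RefSeq, while gene bodies and distances in kb use GENCODE. The Cyp26b1 and Cyp26a1 windows therefore reach into the gene as GENCODE places it.
Cyp26b1: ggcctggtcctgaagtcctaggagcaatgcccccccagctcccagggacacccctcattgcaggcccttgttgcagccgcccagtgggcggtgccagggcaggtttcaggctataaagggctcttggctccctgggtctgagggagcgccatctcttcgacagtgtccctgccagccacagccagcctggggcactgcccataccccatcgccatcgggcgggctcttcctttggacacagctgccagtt
Cyp26a1: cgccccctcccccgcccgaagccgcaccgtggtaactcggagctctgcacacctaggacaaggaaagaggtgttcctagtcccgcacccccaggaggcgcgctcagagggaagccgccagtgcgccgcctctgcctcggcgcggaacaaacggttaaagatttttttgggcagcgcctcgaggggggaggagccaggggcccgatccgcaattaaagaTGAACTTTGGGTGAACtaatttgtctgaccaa
Rarb: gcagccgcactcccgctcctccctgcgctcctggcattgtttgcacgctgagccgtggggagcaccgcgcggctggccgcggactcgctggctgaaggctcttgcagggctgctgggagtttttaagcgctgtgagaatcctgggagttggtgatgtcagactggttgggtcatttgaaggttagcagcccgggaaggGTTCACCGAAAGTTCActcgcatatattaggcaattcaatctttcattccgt
A match was any of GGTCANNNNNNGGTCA, GGTCANNNNNNGTTCA, GTTCANNNNNNGGTCA and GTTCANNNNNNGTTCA on either strand, and no other motif was searched. Such a match stood in 69 of 32851 promoter windows of this length (0.21%). It began 32 bases before the start in Cyp26a1 and 52 bases before it in Rarb. No match to these letters was found in the window of Cyp26b1. Windows of Cyp26c1, Rara, Rarg, Hoxb1, Stra8, Dhrs3, Crabp1 and Nanog were searched as well and held no match. Among these, Rara, Rarg, Hoxb1 and Nanog fell, Stra8 rose, and Cyp26c1 and Dhrs3 did not pass, as given below. Crabp1 fell too, a call that it lost in 7 of 13 alternatives. Whether such a match goes with a change was not tested. The most-read 10-kb window of the bait held no match either, where 1047 of 14634 such windows of chromosome 6 (7.15%) hold one. The match nearest to Cyp26b1 began at 84566635, 27.3 kb downstream of its start.

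Of the 3 genes for RA-degrading enzymes, Cyp26b1 fell and neither Cyp26a1 nor Cyp26c1 passed the test. Cyp26b1 had 17.2, 17.4 and 18.8 CPM in Cyp26-E2-KO, against 66.8, 65.1 and 62.3 CPM in Cyp26-E1-KO and 77.7, 81.0 and 83.7 CPM in WT. Every Cyp26-E2-KO library lay far below every other library (groups did not overlap in 42.5% of all tested genes), and the fold between WT and Cyp26-E2-KO was 4.51. The log2 fold change against WT was -2.17 ± 0.07 (SE; edgeR quasi-likelihood test, adjusted p = 3.2e-18). Set directly against Cyp26-E1-KO it was -1.86 ± 0.07 (edgeR, adjusted p = 3.7e-09), so the fall to this depth is particular to the Cyp26-E2 deletion among the 2 deletions. Cyp26a1 had 387, 363 and 391 CPM in Cyp26-E2-KO, 55.8, 33.8 and 58.8 CPM in Cyp26-E1-KO and 378, 368 and 385 CPM in WT. The Cyp26-E2-KO and WT libraries overlapped, and only those of Cyp26-E1-KO were low. The log2 fold change of Cyp26a1 against WT was 0.02 ± 0.04 (edgeR, adjusted p = 0.81), and against Cyp26-E1-KO it was 2.94 ± 0.18 (edgeR, adjusted p = 2.7e-05). Cyp26c1 had 12.7, 9.78 and 12.3 CPM in Cyp26-E2-KO, 1.24, 2.05 and 0.951 CPM in Cyp26-E1-KO and 16.2, 16.4 and 10.8 CPM in WT. WT replicate 3 of Cyp26c1 lay among the Cyp26-E2-KO libraries and the other two lay above them. Its log2 fold change of -0.31 ± 0.15 gave an edgeR adjusted p of 0.12, and without WT replicate 3 it was -0.48 with an adjusted p of 0.007. With all 6 libraries but no filter on low counts the edgeR adjusted p was 0.0335, so the call depends on the setting. Against Cyp26-E1-KO, Cyp26c1 was higher by 3.04 ± 0.25 (log2; edgeR, adjusted p = 1.9e-05).

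**Figure D1:**
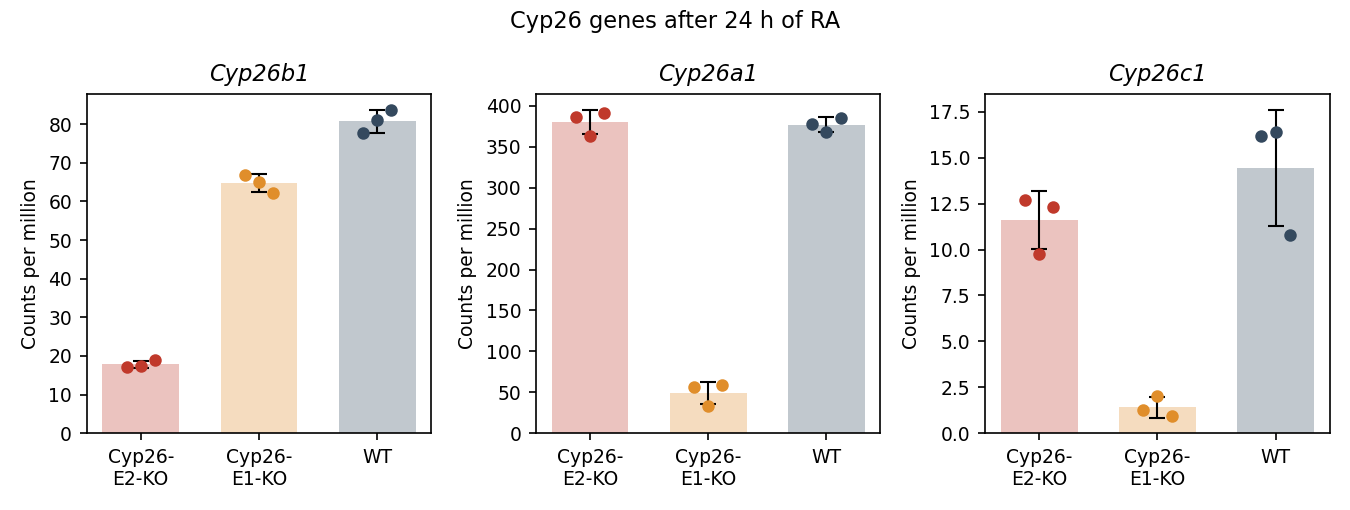
CPM of the 3 Cyp26 genes (vertical axis, linear from 0) in each library (points) of Cyp26-E2-KO, Cyp26-E1-KO and WT, with the group mean (bar) and SD (whisker), n = 3 each. Cyp26b1 is lowest in Cyp26-E2-KO, with a mean of 17.8 CPM against 64.7 CPM in Cyp26-E1-KO and 80.8 CPM in WT, while Cyp26a1 and Cyp26c1 are low in Cyp26-E1-KO.

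Around Cyp26b1 no other tested gene changed to a like extent at a comparable level of expression. Within 1 Mb of its start the table listed 60 genes, 23 had enough counts for the test, and 4 rose and 3 fell, Cyp26b1 included, where 31.6% of all tested genes were called (16% rose and 15.6% fell). Exoc6b, which holds the most-read windows of the bait and encodes a subunit of the exocyst, averaged 53.9 ± 1.74 CPM in Cyp26-E2-KO and 53.5 ± 1.25 CPM in WT (SD, n = 3 each; log2 fold change 0.01 ± 0.06). Dysf, the gene of the membrane repair protein dysferlin, starts 585 kb downstream and had 4.26 ± 0.324 CPM in Cyp26-E2-KO and 4.57 ± 0.655 CPM in WT. Neither of these neighbours passed the test. The other genes that fell were Alms1 (-0.53 ± 0.06), which encodes a centrosomal protein, and Zfp638 (-0.23 ± 0.05), both farther from Cyp26b1 than Dysf. Of those that rose, Rab11fip5 (0.37 ± 0.10), Tex261 (0.20 ± 0.06) and Smyd5 (0.17 ± 0.05) moved little. Egr4 had the largest fold but stayed low, at 0.890 ± 0.0399 CPM in Cyp26-E2-KO and 0.331 ± 0.147 CPM in WT. These neighbours were listed once the bait had been placed. On chromosome 19, within 1 Mb of Cyp26a1, 18 of 33 listed genes were tested, and 5 rose and 3 fell.

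**Figure D2:**
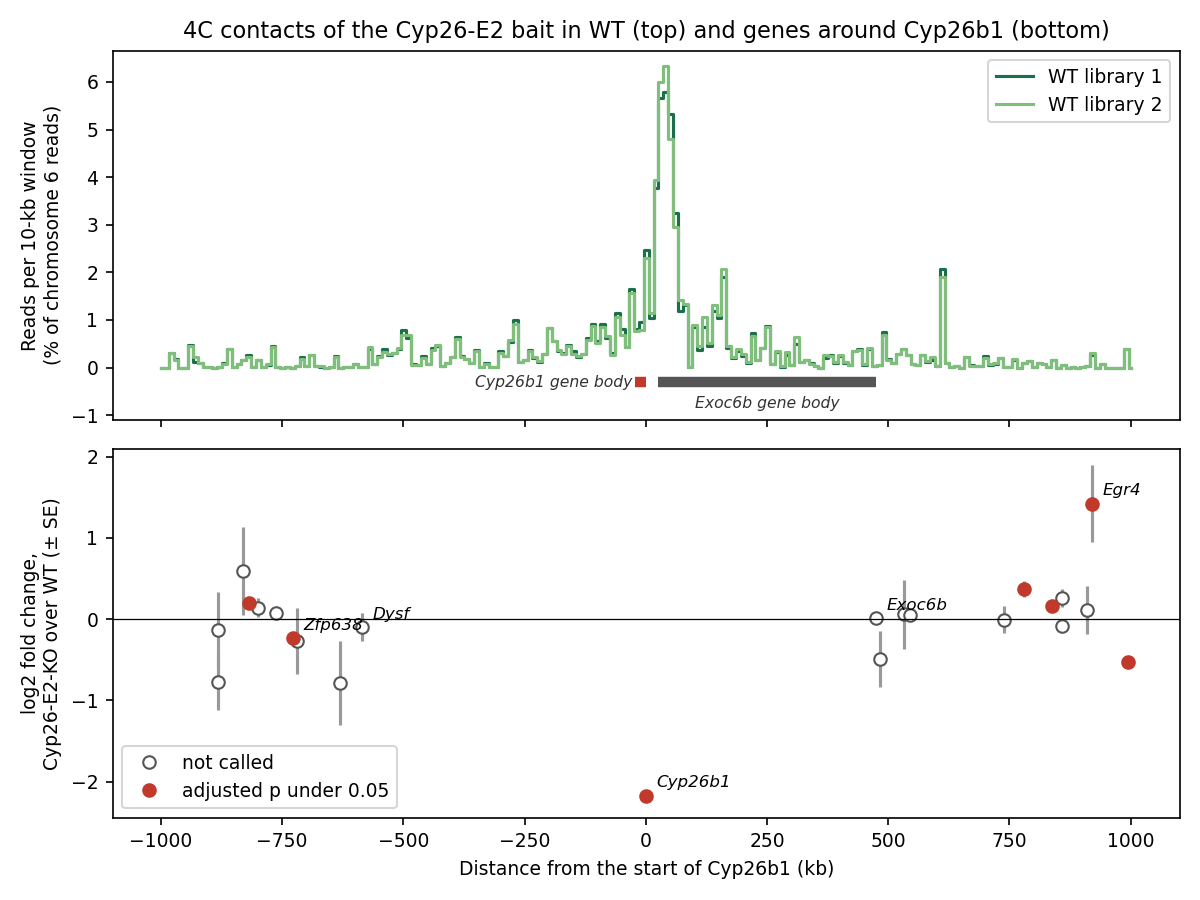
Top, share of chromosome 6 reads per 10-kb window (percent) in the 2 WT libraries of the Cyp26-E2 4C bait, by distance from the start of Cyp26b1 in kb, with the bodies of Cyp26b1 and Exoc6b drawn below the curve. Bottom, log2 fold change of each tested gene, Cyp26-E2-KO over WT, at its start (whiskers, SE; filled, adjusted p under 0.05); reads peak at 5.78% and 6.34% upstream of Cyp26b1, whose fold change of -2.17 is the lowest shown.

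Beyond its own locus the deletion line differed from WT at many genes, most by little. Of 18108 genes tested, 5731 (31.6%) passed an adjusted p of 0.05, 2905 of them higher and 2826 lower in Cyp26-E2-KO. Changes under 1.5-fold made up 4044 of these, the median size among the called genes was 0.39 on the log2 scale, and 618 genes (3.41%) changed at least 2-fold, 327 up and 291 down. When all 9 libraries shared 1 estimate of the spread, 3280 genes were called, of which 3267 were among the 5731. With Cyp26-E1-KO replicate 2 left out of that fit, 5776 were called. The median of all tested genes was 0.00. On simulated counts at these depths the same test found all genes changed 4-fold, and most changed 1.5-fold. Changed genes there were few, were drawn from those above a minimum level and had the spread typical of their level. That check does not cover genes near the floor or changes at as many genes as were called here.

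Among genes with a mean log2 CPM of at least 1, the largest rise was that of Klhl13 (chrX:23219271-23365082), a substrate adaptor of a CUL3 ubiquitin ligase. It had 725, 800 and 727 CPM in Cyp26-E2-KO, 488, 573 and 456 CPM in Cyp26-E1-KO and 168, 173 and 174 CPM in WT. Both deletions were far above WT without overlap, and Cyp26-E2-KO was above Cyp26-E1-KO. Its log2 fold change was 2.13 ± 0.04 against WT (edgeR, adjusted p = 6.8e-22) and 0.57 ± 0.08 against Cyp26-E1-KO (edgeR, adjusted p = 0.0012). Next came the protocadherin Pcdh17 (2.1), the natriuretic peptide receptor Npr3 (2.03), the butyrophilin Btn1a1 (1.88), the bHLH factor Msc (1.88), the VEGF receptor Kdr (1.86), Sh3rf2 (1.85), the interferon-inducible GTPase Irgm1 (1.85), the hyaluronan synthase Has2 (1.80) and Serpinb9b (1.80). These 9 genes averaged 4.36 to 11.05 CPM in Cyp26-E2-KO and 1.09 to 3.17 CPM in WT. Of the falls, Ndufa4l2, a mitochondrial protein induced by hypoxia, was largest. It had 0.931, 1.86 and 1.70 CPM in Cyp26-E2-KO, 0.325, 0.0706 and 0.563 CPM in Cyp26-E1-KO and 11.5, 12.5 and 11.6 CPM in WT. Both deletions were low, with Cyp26-E1-KO the lower, and the log2 fold change of Cyp26-E2-KO against WT was -2.98 ± 0.19 (edgeR, adjusted p = 3.7e-12). The opioid precursor Pdyn (-2.66), the glutathione-cleaving enzyme Chac1 (-2.52), Ubap1l (-2.19), Cyp26b1, the atrial myosin light chain Myl7 (-2.05), Slfn9 (-1.96), the potassium channel subunit Kcng4 (-1.93), Cyp2b23 (-1.90) and the chemokine Cxcl12 (-1.81) followed. Klhl13 and Cyp26b1 were the 2 of these 20 genes with the highest mean count. For each of the 20, Cyp26b1 included, the Cyp26-E1-KO libraries also lay on the same side of every WT library, and both deletions were set against the same WT libraries. The 20 were chosen for large changes without overlap against these WT libraries. How often Cyp26-E1-KO and WT do not overlap over all genes was not computed, so no shared response is read from this count.

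**Figure D3:**
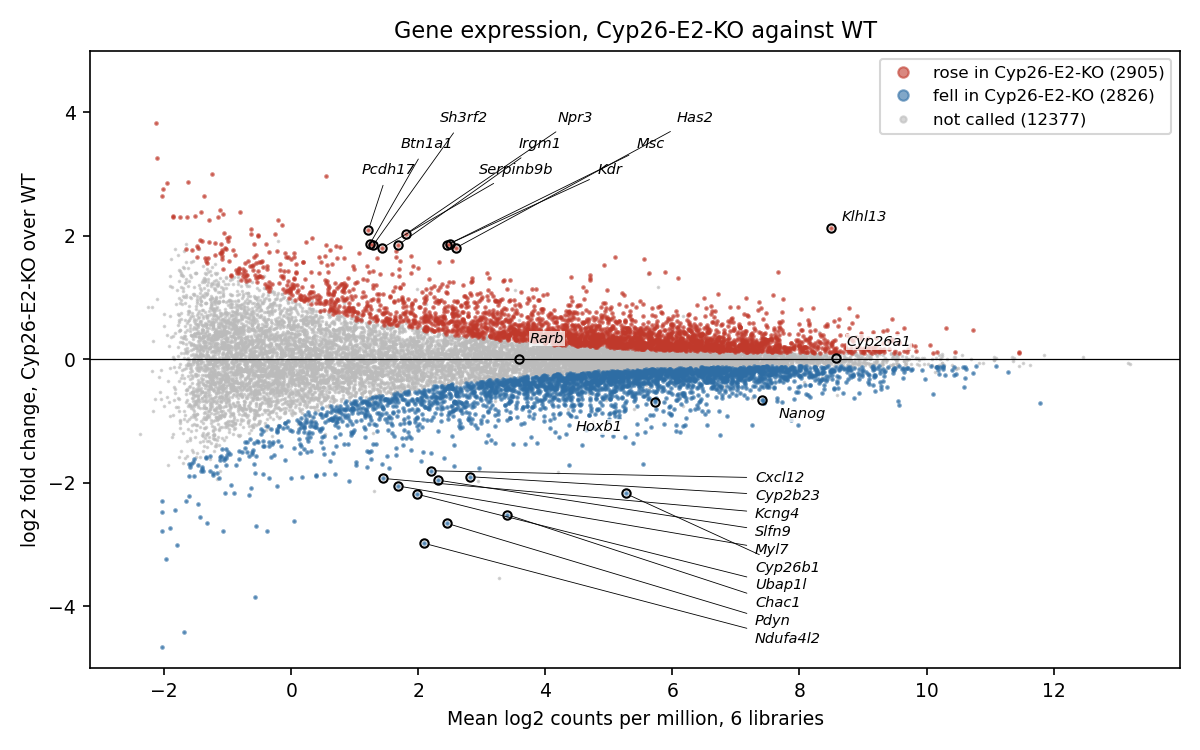
Log2 fold change of Cyp26-E2-KO over WT (vertical axis) against the mean log2 CPM of the 6 libraries (horizontal axis), 1 point per tested gene, red where it rose (2905), blue where it fell (2826) and grey where it was not called (12377). Names mark the genes with the largest changes and some RA target and pluripotency genes; Cyp26b1 stands below the other genes of its level, and Cyp26a1 and Rarb lie on the line.

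Genes that handle RA included both rises and falls. Of 18 tested genes for RA degradation, synthesis and binding, 4 rose and 4 fell, with a median log2 fold change of 0.01 against 0.00 over all genes, and leaving out 1 library gave 2 to 4 rises (2 without Cyp26-E2-KO replicate 1 or 3) and 3 or 4 falls. Over all genes 16% rose and 15.6% fell, and the fit over 9 libraries gave 2 rises and 1 fall in this list. Rdh10, which makes retinaldehyde from retinol, had 17.0, 15.4 and 14.6 CPM in Cyp26-E2-KO, 14.6, 16.2 and 17.1 CPM in Cyp26-E1-KO and 7.84, 8.65 and 7.78 CPM in WT. Both deletions were above WT throughout (Cyp26-E2-KO over WT 0.96 ± 0.11; edgeR, adjusted p = 2.7e-07). Aldh1a2, which oxidises retinaldehyde to RA, rose as well, at a low level, by 0.77 ± 0.17 (edgeR, adjusted p = 0.0013). Stra6, a retinol transporter of the cell membrane, had 72.59 CPM in Cyp26-E2-KO, 38.2 CPM in Cyp26-E1-KO and 64.7 CPM in WT, and was higher than in Cyp26-E1-KO by 0.93 (edgeR, adjusted p = 4.8e-05). Dhrs3, which returns retinaldehyde to retinol, did not pass the test (-0.08 ± 0.06).

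Among RA receptors, Rara fell and Rarb did not pass the test. Rara had 78.2, 72.7 and 76.5 CPM in Cyp26-E2-KO, 70.7, 62.3 and 73.1 CPM in Cyp26-E1-KO and 96.7, 104 and 98.5 CPM in WT. Libraries of both deletions lay below all of WT, and the log2 fold change of Cyp26-E2-KO over WT was -0.39 ± 0.05 (edgeR, adjusted p = 1.6e-06). Rarb had 10.4, 12.3 and 12.8 CPM in Cyp26-E2-KO and 11.96, 11.6 and 12.1 CPM in WT, which overlapped (0.00 ± 0.11, edgeR adjusted p = 0.999). Rarg fell by 0.21 (edgeR, adjusted p = 0.014), a call that was lost without WT replicate 3 (adjusted p = 0.054). Rxra (0.13 ± 0.07) and Rxrb (0.00 ± 0.06) did not pass. Over the 16 tested receptors and cofactors 2 rose and 5 fell, where 16% and 15.6% of all tested genes did. The fit over 9 libraries left 1 fall.

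Hox genes of the Hoxa and Hoxb clusters, which pattern the body axis and answer RA, were more often lower than higher in Cyp26-E2-KO. Hoxb1 had 43.7, 39.6 and 40.4 CPM in Cyp26-E2-KO, 24.2, 22.4 and 22.1 CPM in Cyp26-E1-KO and 64.5, 69.2 and 66.7 CPM in WT. The groups did not overlap, and Cyp26-E2-KO lay between the other two. The log2 fold change of Hoxb1 against WT was -0.69 ± 0.06 (edgeR, adjusted p = 1.9e-09). Against Cyp26-E1-KO, Hoxb1 was higher by 0.85 ± 0.08 (edgeR, adjusted p = 3.0e-05). Of all tested genes 16% rose and 15.6% fell. In the Hoxa cluster 6 of 11 tested genes fell and 1, Hoxa4, rose (0.31), with a median of -0.45. In the Hoxb cluster 6 of 12 fell and 0 rose, with a median of -0.43. Hoxb6 (-0.89), Hoxa7 (-0.88) and Hoxb5 (-0.75) fell, as did Hoxa6 (-0.93), which had 1.57 CPM in Cyp26-E2-KO and 3.00 CPM in WT. In the Hoxb cluster 5 genes were higher than in Cyp26-E1-KO, by 0.75 to 1.00, and 0 were lower. Among all genes of that test 2.02% were higher and 2.46% lower. Of 10 tested Hoxc and Hoxd genes, mostly under 5 CPM, 5 rose and 1 fell, but leaving out 1 library gave 2 to 4 rises. Cdx1, a homeobox gene that acts upstream of Hox genes, had 71.1, 62.8 and 62.0 CPM in Cyp26-E2-KO, 66.3, 62.3 and 68.2 CPM in Cyp26-E1-KO and 115, 121 and 114 CPM in WT. It fell in Cyp26-E2-KO by 0.83 ± 0.06 (edgeR, adjusted p = 1.2e-11), with no overlap. Stra8, an RA target that starts meiosis in germ cells, had 256, 248 and 253 CPM in Cyp26-E2-KO, 154, 95.5 and 147 CPM in Cyp26-E1-KO and 209, 216 and 210 CPM in WT. It rose by 0.26 ± 0.04 (edgeR, adjusted p = 2.3e-05), a call lost in the fit over 9 libraries (adjusted p = 0.25), and was above Cyp26-E1-KO by 0.93 ± 0.14 (edgeR, adjusted p = 0.0037).

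Pluripotency genes were lower on balance. Nanog had 130, 138 and 134 CPM in Cyp26-E2-KO, 118, 99.9 and 109 CPM in Cyp26-E1-KO and 207, 211 and 217 CPM in WT. The groups did not overlap, and Nanog fell in Cyp26-E2-KO by 0.65 ± 0.04 on the log2 scale (edgeR, adjusted p = 1.4e-11). Sox2 had 172, 134 and 161 CPM in Cyp26-E2-KO, 179, 131 and 185 CPM in Cyp26-E1-KO and 209, 204 and 223 CPM in WT, a fall of 0.44 ± 0.09 in Cyp26-E2-KO (edgeR, adjusted p = 0.0045). Pou5f1, the defining factor of ESCs, stayed at 491 to 548 CPM in Cyp26-E2-KO and 578 to 624 CPM in WT, so it was expressed in every library of both groups. Its fall of 0.18 ± 0.05 (edgeR, adjusted p = 0.003) did not pass in the fit over 9 libraries (adjusted p = 0.24). Of 20 naive pluripotency genes 12 fell, Tcl1 (-1.01), Klf2 (-0.58) and Zfp42 (-0.47) among them. Another 2 rose, Nr0b1 (0.51) and Fgf4 (0.36), or 4 without Cyp26-E2-KO replicate 2. Shares over all tested genes were 16% for rises and 15.6% for falls. Esrrb (0.10) and Klf4 (0.13) did not pass. Genes of formative and primed pluripotency, the states that ESCs pass through as they leave the naive one, split into 4 rises and 7 falls of 17. Foxd3 (0.72) and Fgf5 (0.98, near 5 CPM) rose, and Zic5 (-0.85), Zic2 (-0.58) and Dnmt3a (-0.32) fell.

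Most genes listed for extraembryonic endoderm, the lineage of the yolk sac that ESCs can enter under RA, rose. Of 22 tested, 15 rose and 2 fell, where 16% and 15.6% of all tested genes did, with a median log2 fold change of 0.33 and 13 to 15 rises when 1 library was left out. The adaptor gene Dab2 had 28.6, 32.8 and 28.0 CPM in Cyp26-E2-KO, 28.8, 28.4 and 30.7 CPM in Cyp26-E1-KO and 13.9, 15.6 and 14.8 CPM in WT. Its level in both deletions was above every WT library (Cyp26-E2-KO over WT 1.02 ± 0.09; edgeR, adjusted p = 1.9e-09). The transcription factor genes Sox7 (0.60), Sox17 (0.50), Gata6 (0.26) and Gata4 (0.21) and the laminin gene Lama1 (0.46) rose as well, and Hnf4a fell (-1.70) to 1.45 CPM, against 4.71 CPM in WT. The 7 members used as markers of this lineage all passed as higher, and the members that fell or did not pass are not among them. Their summed level was 439 to 455 CPM in Cyp26-E2-KO, 371 to 378 CPM in Cyp26-E1-KO and 348 to 363 CPM in WT. Gata6 weighed most on this sum, with a mean of 220 CPM in Cyp26-E2-KO and 185 CPM in WT. In the same libraries 7 markers of undifferentiated cells, of which 5 fell and 0 rose, were summed. They reached 1511 to 1615 CPM in Cyp26-E2-KO, 1563 to 1720 CPM in Cyp26-E1-KO and 1828 to 1888 CPM in WT. In bulk RNA more cells of a type and more RNA per cell cannot be told apart. Fibroblast markers summed to 2.59 to 3.88 CPM in Cyp26-E2-KO and 3.04 to 3.95 CPM in WT.

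Other lineages changed gene by gene, and their counts stand beside 16% of all tested genes that rose and 15.6% that fell. Of 15 tested genes of mesoderm and primitive streak 7 rose and 1 fell (median 0.43), among them Kdr (1.86), Hand1 (1.59), Twist1 (0.95) and Eomes (0.85), while the streak genes T and Mixl1 were under 3 CPM and did not pass. Eomes had 38.6, 37.3 and 40.2 CPM in Cyp26-E2-KO, 38.2, 43.0 and 39.9 CPM in Cyp26-E1-KO and 19.7, 22.8 and 22.3 CPM in WT, with both deletions near one another and above WT. Of 12 trophectoderm genes 5 rose and 0 fell, Gata3 (1.57) the clearest. It had 8.79, 8.25 and 8.31 CPM in Cyp26-E2-KO and 2.66, 3.43 and 2.47 CPM in WT. The markers Krt18 (-0.22), Tfap2c (0.20) and Krt7 (0.94, under 1 CPM) did not pass, and Elf5 had too few counts for the test. Against Cyp26-E1-KO 3 members were lower in Cyp26-E2-KO, where 2.46% of all genes of that test were. Gata3 was among them, a call that it lost in 5 of 12 alternatives. Eomes and Hand1 belong to both lists. Of 15 tested neuroectoderm genes 2 rose and 4 fell, such as Msx1 (1.15) and Sox1 (-0.66), a share near the 31.6% called over all genes. The falls were 2 without Cyp26-E2-KO replicate 2 or 3 or WT replicate 2, and the rises 1 without Cyp26-E2-KO replicate 3. Epithelial genes rose in 9 of 17 cases and fell in 1. Epcam, an adhesion molecule, had 152, 154 and 147 CPM in Cyp26-E2-KO, 148, 108 and 142 CPM in Cyp26-E1-KO and 72.1, 68.7 and 76.4 CPM in WT (1.06 ± 0.05 for Cyp26-E2-KO over WT; edgeR, adjusted p = 1.8e-14). Claudin genes Cldn6 (0.99) and Cldn4 (0.77) and the epithelial factor Grhl2 (0.96) rose, and E-cadherin (Cdh1, 0.07) did not pass.

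Lefty1 and Lefty2, whose products oppose the Nodal signal of the TGF-beta family, differed between the 2 deletions. Lefty2 had 36.2, 30.7 and 35.5 CPM in Cyp26-E2-KO, 2.96, 3.43 and 2.71 CPM in Cyp26-E1-KO and 72.0, 72.9 and 75.9 CPM in WT. Each group stood clear of the others, with Cyp26-E2-KO between them. Lefty2 fell by 1.1 ± 0.07 against WT (edgeR, adjusted p = 1.3e-12) and was higher by 3.49 ± 0.11 than in Cyp26-E1-KO (edgeR, adjusted p = 2.8e-10). Lefty1 fell by 0.36, with 171 CPM in Cyp26-E2-KO, 31.4 CPM in Cyp26-E1-KO and 220 CPM in WT. Nodal itself rose by 0.64 ± 0.06, with 92.5 CPM in Cyp26-E2-KO and 59.4 CPM in WT, and did not differ from Cyp26-E1-KO past the threshold (-0.12 ± 0.11). Its co-receptor gene Tdgf1 fell by 0.53 against WT and was also lower than in Cyp26-E1-KO (-0.35; edgeR, adjusted p = 0.0057). Over the list of 14 tested genes 4 rose and 5 fell, where 16% and 15.6% of all tested genes did. Leaving out 1 library gave 1 to 4 rises.

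Lists of amino acid stress, glycolysis and antioxidant genes each moved mostly one way, where 16% of all tested genes rose and 15.6% fell. Of 20 targets and partners of ATF4, the factor that answers amino acid shortage, 16 fell and 0 rose, with a median of -0.55. Asns, asparagine synthetase, had 158, 171 and 166 CPM in Cyp26-E2-KO, 184, 217 and 174 CPM in Cyp26-E1-KO and 317, 334 and 331 CPM in WT. Every library of both deletions lay well below every WT library, and its log2 fold change was -0.99 ± 0.04 in Cyp26-E2-KO (edgeR, adjusted p = 6.4e-15). Chac1 (-2.52), Trib3 (-1.15), Nupr1 (-1.08) and Psat1 (-0.64) fell too. Of 20 genes of glycolysis and hypoxia 16 fell and 1 rose (median -0.34), among them Vegfa (-1.18), Pfkp (-1.07), Bnip3 (-0.97) and the glucose transporter gene Slc2a1 (-0.67). Pfkp, a phosphofructokinase, had 105, 102 and 106 CPM in Cyp26-E2-KO, 93.7, 106 and 87.6 CPM in Cyp26-E1-KO and 218, 214 and 226 CPM in WT. Of 16 antioxidant targets of NRF2, 11 rose and 0 fell (median 0.59). Nqo1, a quinone reductase, had 112, 102 and 108 CPM in Cyp26-E2-KO, 139, 127 and 131 CPM in Cyp26-E1-KO and 43.2, 38.1 and 47.5 CPM in WT. The glutathione synthesis genes Gclm (0.80) and Gclc (0.78), Srxn1 (0.69) and Txnrd1 (0.59) rose with it. Osgin1 had 0.404, 0.366 and 0.790 CPM in Cyp26-E2-KO, against 0.0324, 0.0665 and 0 CPM in WT, and is given without a fold. Counts of these 3 lists moved by at most 2 when 1 library was left out, and the fit over 9 libraries gave 11 and 13 falls and 9 rises.

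**Figure D4:**
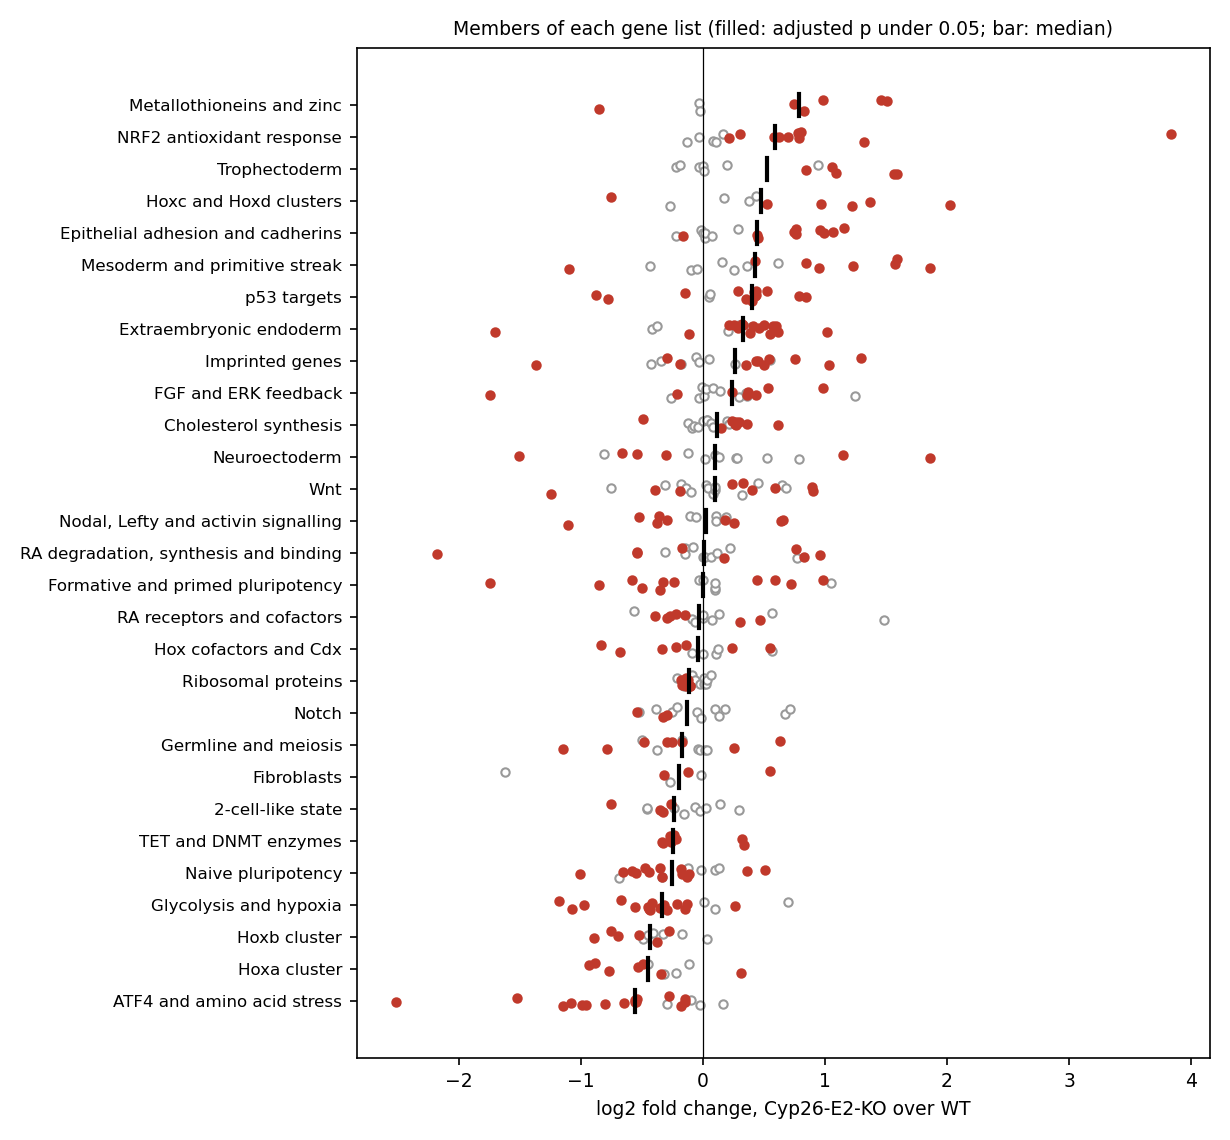
Log2 fold change of Cyp26-E2-KO over WT (horizontal axis) of each tested member (point; filled red where adjusted p was under 0.05) of 29 gene lists, ordered by their median (black bar). Metallothionein, NRF2 and epithelial genes lie mostly right of 0, and ATF4 targets, Hoxa, Hoxb and glycolysis genes mostly left.

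The 2 deletions were set against each other in a fit over all 9 libraries, to find what differed between them rather than what each shared with the same WT libraries. Of 18768 genes tested, 842 passed (4.49%), 380 higher (2.02%) and 462 lower (2.46%) in Cyp26-E2-KO than in Cyp26-E1-KO. Cyp26-E1-KO replicate 2 weighed on this count, which was 1852 without it, and it was 400, 379 and 310 without Cyp26-E2-KO replicates 1, 2 and 3. With library totals as the only scaling the share of higher genes among the called was 60.19%, against 45.13%. Of the 2905 genes that rose against WT, 120 were also higher than in Cyp26-E1-KO and 177 lower, and of the 2826 that fell, 100 were lower and 81 higher. Besides Cyp26b1 and Klhl13, genes past both tests in the same direction included the imprinted RNA H19, with 16.4, 17.0 and 17.3 CPM in Cyp26-E2-KO, 5.50, 4.38 and 6.34 CPM in Cyp26-E1-KO and 5.71, 6.98 and 8.04 CPM in WT. For H19, only Cyp26-E2-KO was high, by 1.29 ± 0.12 against WT and 1.64 ± 0.16 against Cyp26-E1-KO (edgeR, adjusted p = 6.4e-09 and 4.0e-05). Foxq1, a forkhead factor gene, was likewise high in Cyp26-E2-KO alone, at 17.5, 17.7 and 19.98 CPM, against 11.8, 8.30 and 10.4 CPM in Cyp26-E1-KO and 11.2, 12.5 and 12.3 CPM in WT. Npr3 was lower in Cyp26-E2-KO than in Cyp26-E1-KO (-1.37 ± 0.19; edgeR, adjusted p = 0.00075), though above WT in both.

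The receptor knockouts of the series give an independent setting, since their table shares no library with the enhancer table. RARX-DKO cells, which lack RARα and RXRα, were compared with their own WT (2 libraries each, 7408691 to 13052102 counts over the 8 libraries of that fit), also after 24 h of 2 µM RA. For the spread, that fit also held the single knockouts Rarα-KO and Rxrα-KO, with 2 libraries each. Of 16445 genes tested there, 368 passed (2.24%), 173 as rises (1.05%) and 195 as falls (1.19%), and the count was 53 and 32 without WT replicate 1 and 2, so it rests on both. Cyp26b1 had 2.61 and 3.81 CPM in RARX-DKO and 38.6 and 40.2 CPM in that WT (log2 fold change -3.62 ± 0.43; edgeR, adjusted p = 0.0016). Cyp26a1 (-4.34 ± 0.32; edgeR, adjusted p = 0.00018) and Cyp26c1 (-3.56 ± 0.44; edgeR, adjusted p = 0.0011) fell in RARX-DKO too, whereas neither passed in Cyp26-E2-KO. Of 14852 genes tested in both tables, 213 were called in both, which is 59.3% of the 359 called in RARX-DKO and 3.95% of the 5392 called in Cyp26-E2-KO. Over those 14852 genes, 36.3% were called in Cyp26-E2-KO and 2.42% in RARX-DKO. In 69 of them both rose and in 78 both fell. In 41 the gene rose in Cyp26-E2-KO and fell in RARX-DKO, and in 25 it fell in Cyp26-E2-KO and rose in RARX-DKO. Cdx1 fell in both (-1.17 in RARX-DKO), although its edgeR adjusted p was 0.056 without WT replicate 1 of the receptor table and 0.109 without WT replicate 2. Sox2 fell in Cyp26-E2-KO and was 0.97 higher in RARX-DKO (edgeR, adjusted p = 0.0061, and 0.16 without WT replicate 2).

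Several stretches of chromosome moved as blocks. Genes were grouped into 274 windows of 10 Mb, and 216 held at least 20 genes with a mean log2 CPM of 1 or more. The median log2 fold change of 18 windows was more than 0.15 from 0, 10 of them higher and 8 lower. On chromosome 6 the windows at 110, 120 and 140 Mb had medians of 0.24, 0.24 and 0.19 against WT, and 0.25, 0.26 and 0.25 against Cyp26-E1-KO. In the other 15 windows, such as those at 10 and 20 Mb of chromosome 16 (0.42 and 0.42), at 110 Mb of chromosome 12 (-0.49) and at 40 Mb of chromosome 10 (0.30), the median against Cyp26-E1-KO was between -0.07 and 0.11. Of the 220 genes past both tests in the same direction, 47 (21.4%) were on chromosome 6, 45 of them higher, which is 5.11% of the 919 tested there against 1.21% of all. Emp1 and Arhgdib are examples, with 33.1 and 35.9 CPM in Cyp26-E2-KO, 17.7 and 19.5 CPM in Cyp26-E1-KO and 13.2 and 15.9 CPM in WT. Nanog and Cxcl12 lie in these chromosome 6 windows but fell. Pdyn, Trib3 and Hnf4a lie in windows of chromosome 2 with medians of -0.19 to -0.27, and Nodal in one of chromosome 10 with 0.21. Without the 18 windows, an alternative chosen after seeing the data, 5029 genes were called. Among the gene lists, leaving them out took the rises of Hoxc and Hoxd genes to 2 of 5, the falls of extraembryonic endoderm genes to 1 of 2 and the rise in the glycolysis list to 0 of 1. It also took the falls of Notch genes to 1 of 3, and the rises of germline genes and of DNA methylation genes to 1 of 2 each. All other list counts stayed within 1.5 times of those in the main fit.

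**Figure D5:**
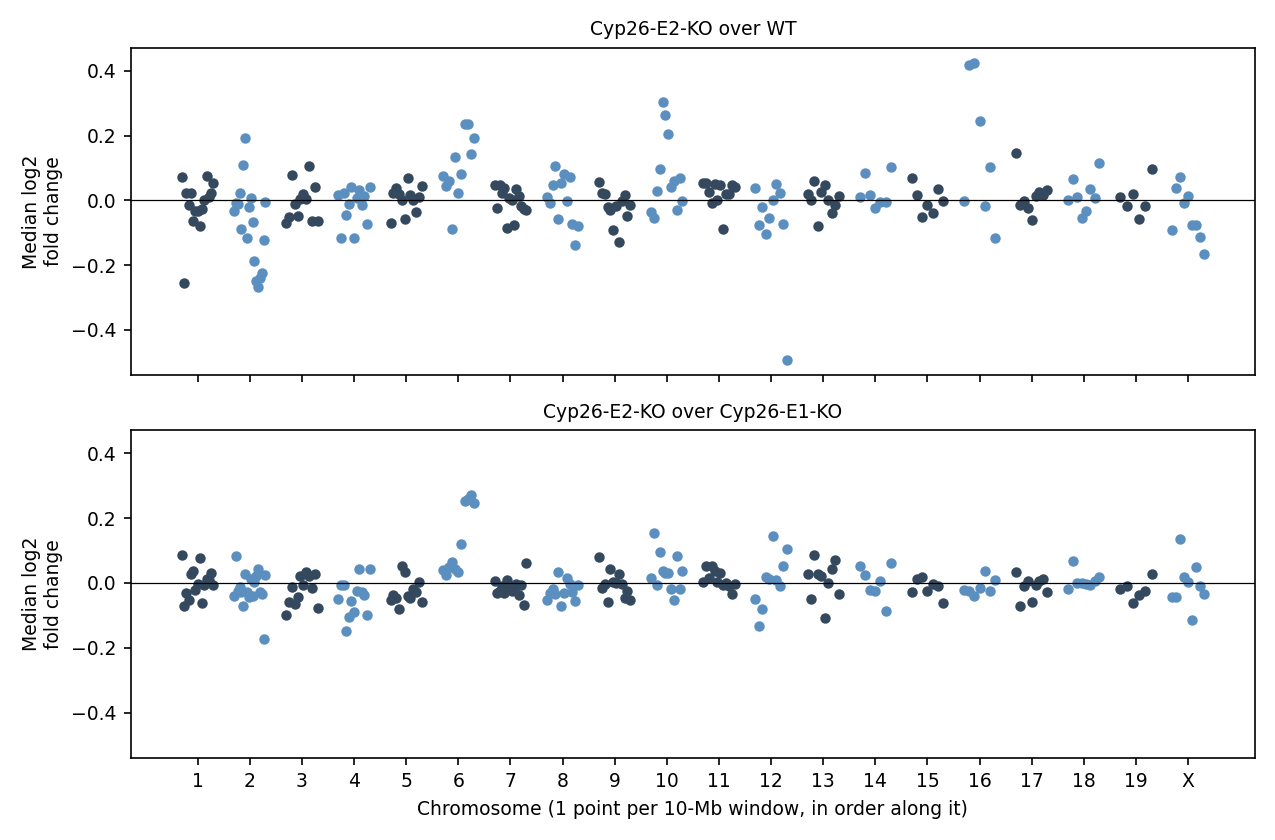
Median log2 fold change (vertical axis) of each 10-Mb window with at least 20 genes, in order along chromosomes 1 to 19 and X, for Cyp26-E2-KO over WT (top) and Cyp26-E2-KO over Cyp26-E1-KO (bottom). The 15 windows more than 0.15 from 0 on chromosomes 1, 2, 10, 12, 16 and X in the top panel lie between -0.07 and 0.11 in the bottom one, and those of distal chromosome 6 leave 0 in both.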

How the data were processed

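RNA-seq counts per gene were deposited by the authors as whole numbers, without normalization, and the deposited 4C tables hold read counts per restriction fragment. Some of these also hold CPM that the authors computed, per the file headers, and these were not used. CPM in the text were computed here from the counts. The submitters' processing notes list mm10 and, with no role or order, MACS2 2.2.7.1, the aligners Bowtie2 2.3.1 and HISAT2 2.1.0, the counter HTSeq 0.9.1, and DESeq2 1.18.1. Whether counting used strand is not given in the sources used here, so antisense and overlapping genes are uncertain. Gene IDs were matched to GENCODE names for 52403 of 52636 entries, and 233 had none.

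Genes were filtered with filterByExpr (minimum count 10), scaled by TMM and tested with the quasi-likelihood test of edgeR 4.0.16 (robust) in R 4.3.3, with Benjamini-Hochberg adjustment over all tested genes and a threshold of 0.05. Each standard error is the size of the log2 fold change divided by the root of its F statistic. Cyp26-E2-KO against WT used 6 libraries, and Cyp26-E2-KO against Cyp26-E1-KO all 9. The test was checked on simulated counts. Alternatives were DESeq2 1.42.0, other scalings, no filter, other sets of libraries, a replicate block and leaving out each library. Named genes were the 10 largest rises and the 10 largest falls that had a mean log2 CPM of at least 1, no overlap between groups and a gene name, the 5 list members with the largest changes in each list, genes named in the design, and neighbours within 1 Mb. Emp1, Arhgdib, Npr3 in the test against Cyp26-E1-KO, and list members given as not passing or beyond the 5 were named after their values were seen. Members and lists were chosen with earlier results of these data known. H3K27Ac ChIP-seq was not analysed here. A few members of the lists are not reported here by name.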

Additional observations from a re-analysis of the deposited data

How the results depend on the processing

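The 5731 genes called between Cyp26-E2-KO and WT became 3280 with all 9 libraries in the fit, 618 with a 2-fold minimum, and 4643 to 5523 when 1 library was left out. DESeq2, other scalings, no filter and the removal of chromosomes stayed within 1.5 times of that count. So did the fit over 8 libraries, with Cyp26-E1-KO replicate 2 left out, which gave 5776. The 842 genes between Cyp26-E2-KO and Cyp26-E1-KO became 1357 with DESeq2, 1384 without the filter, 339 with 6 libraries, 112 with the 2-fold minimum, and 310 to 1852 when 1 library was left out. The 368 genes between RARX-DKO and WT became 582 with DESeq2, 981 without the filter, 191 with the 2-fold minimum, and 32 to 408 when 1 library was left out. A fold minimum lowers a count by construction, and fewer libraries can do so. Without Cyp26-E1-KO replicate 2 the count of 842 instead rose to 1852. The cause of the shifts other than those with a fold minimum was not tested. Same-numbered replicates did not deviate together (correlations of -0.01, 0.03 and 0.07), and with the replicate block the 3 counts were 5570, 861 and 296. Values near 0 changed sign. Rarb was -0.0042 with DESeq2 size factors, -0.0041 with DESeq2, -0.0045 with the replicate block, -0.0040 with all 9 libraries, and -0.065 to 0.089 when 1 library was left out. Cyp26a1 was -0.0085 to 0.051 when 1 library was left out. Hhex (-0.11) was 0.038 with the replicate block and -0.48 to 0.54 when 1 library was left out. Of 169 named genes, 122 kept their direction and side of the threshold in every alternative run. Depth limits genes under about 1 CPM.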

Other observations

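Further lists had values not yet described, and are read against 16% of all tested genes that rose and 15.6% that fell. Of 15 tested p53 targets, 10 rose and 3 fell in Cyp26-E2-KO relative to WT, with a median log2 fold change of 0.41. Plk2 (0.85), the cell cycle inhibitor gene Cdkn1a (0.79) and Mdm2 (0.53), whose product degrades p53, rose, and Pmaip1 (-0.87) and Gdf15 (-0.78) fell. Of 19 imprinted genes 8 rose and 3 fell, with Mest (1.04) and the growth factor gene Igf2 (0.54) among the rises and Plagl1 (-1.36) among the falls. Of 20 genes of cholesterol synthesis 8 rose and 1 fell, with Cyp51 (0.27) among the rises and Ebp (-0.49) as the fall. The metallothionein gene Mt1 (0.83) and the zinc importer gene Slc39a4 (0.99) rose, in a list of 8 with 5 rises and 1 fall. In the fit over 9 libraries Mt1, Tet1 and Gdf15 did not pass (edgeR adjusted p of 0.12, 0.10 and 0.055).

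DNA methylation genes split, with Dnmt3l (0.34) and Tet1 (0.32) higher and Dnmt3a (-0.32), Tet2 (-0.33) and Uhrf1 (-0.27) lower, and 2 rises and 6 falls among 8. Of 23 Wnt genes 6 rose and 3 fell, with Wnt7b (0.90), Lef1 (0.59) and the inhibitor gene Sfrp5 (-1.24) as examples, a share near that over all genes. The falls were 5 without Cyp26-E2-KO replicate 1, and the rises 3 in the fit over 9 libraries. Of 19 genes of FGF signalling and its feedback 6 rose and 2 fell, including the ERK phosphatase genes Dusp6 (0.54) and Dusp4 (0.44) and the receptor gene Fgfr2 (0.37). Of 14 Notch genes 3 fell and 0 rose, Notch3 (-0.54) among them, which is under the 31.6% called over all genes. The falls were 1 without Cyp26-E2-KO replicate 1 or 2, and 1 in the fit over 9 libraries. Germline genes gave 2 rises and 6 falls of 15, with Smc1b (-1.14), a meiotic cohesin, among the falls, and the fit over 9 libraries gave 1 rise and 2 falls. Of 13 genes of the 2-cell-like state 4 fell and 0 rose, and the falls were 2 without WT replicate 2 and 0 in the fit over 9 libraries. Near-identical copies in that list share reads and are uncertain. Of 20 ribosomal protein genes 9 fell and 0 rose, by little (median -0.11). The falls were 5 without Cyp26-E2-KO replicate 3 or WT replicate 2, 4 without WT replicate 3 and 0 in the fit over 9 libraries.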
